A study of Mus musculus with 8 samples.

Results

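The genes described here are 9 tight junction genes of the mouse: the claudins Cldn1, Cldn3, Cldn4, Cldn6, Cldn7 and Cldn8, the transmembrane protein occludin (Ocln), and the scaffolds ZO-1 (Tjp1) and cingulin (Cgn). They were taken by name from the 23432 genes counted in each library, with no measured value in the rule. Earlier results of these data were known when they were chosen. Tight junctions seal the space between neighbouring epithelial cells. Claudins of neighbouring cells meet in strands and set which ions and solutes pass, occludin lies in the same strands, and ZO-1 and cingulin tie the strands to actin and myosin inside the cell. In the epidermis these junctions form in the granular layer, while several claudins are made in deeper layers too.

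RNA was sequenced from 2 experiments, each with 2 control and 2 knockout libraries, 8 libraries in all. In embryos at E16.5, back skin was dissociated with collagenase and trypsin. Living K14-H2BGFP+ epithelial cells, which a histone-GFP fusion under the Krt14 promoter marks, were then collected by FACS from control and MOF cKO animals. MOF cKO animals carried MOF fl/fl and K14Cre, so that MOF (gene Kat8), the acetyltransferase that places H4K16ac, was deleted from Krt14-expressing epithelium but not from other skin cells. In newborn pups at P0.5, Dispase was used to lift the whole epidermal sheet of control and Kansl1 cKO animals, and the sheet went straight into TRIzol. Kansl1 cKO animals carried Kansl1 fl/fl and K14Cre, which removes exon 3 of Kansl1, a subunit of the NSL complex of MOF, in the same epithelium. Controls were littermates, whose genotype the sources used here do not give for each library. All mice had a mixed C57Bl/6J and CD-1 background. Stage, isolation and sequencing instrument differ together between the experiments and cannot be told apart.

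The libraries held between 9108709 and 27561688 counts on genes. Levels are given as CPM, the counts of a gene over the TMM-scaled size of its library, with the libraries of a group in the order of their replicate numbers, and ± is the SD of 2 libraries. CPM were scaled within each experiment, except where given per kilobase, so they are not on 1 scale across the experiments. Kat8 stood at 14.4 and 14.7 CPM in the E16.5 controls and at 12.4 and 13.9 in MOF cKO (adjusted p = 0.554). Kansl1 stood at 40.7 and 48.2 CPM in the P0.5 controls and at 31.4 and 30.6 in Kansl1 cKO (adjusted p = 0.242). Counts over a whole gene include the exons that Cre leaves in place, so they do not check the genotype. Basal keratinocyte markers, Krt5 and Krt14 among them, summed to between 30801 and 38044 CPM at E16.5 and to between 17194 and 19218 CPM at P0.5. P0.5 control replicate 1 stood apart by its 5 muscle markers, with 169.9 CPM against 1.58 to 3.75 in the other P0.5 libraries. By Xist the sexes were not matched: E16.5 control replicate 1 had 1518 CPM against 9.99 to 12 in the other E16.5 libraries, and P0.5 control replicate 2 had 1.23 CPM against 371 to 427 in the other P0.5 libraries.

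Per kilobase of exon and scaled over all 8 libraries, so that genes and groups can be compared, Cldn1 was the most abundant of the 9 genes in the E16.5 controls, at 22.8 ± 3.33 CPM per kb. Cldn4 followed at 17.6 ± 1.49 and Tjp1 at 13.7 ± 0.233, and the libraries of these 3 genes did not overlap. A second tier lay far lower, with Cldn7 at 2.50 ± 0.751 CPM per kb above Cldn8, Cgn, Cldn6 and Ocln. These last 4 genes lay between 1.40 and 1.70 CPM per kb on average, and each overlapped the next in the order. Cldn3 was last at 0.272 ± 0.216, from 5 and 16 counts.

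In MOF cKO the order at the top was turned round on the same scale. Cldn4 stood first at 50.1 ± 0.924 CPM per kb, Cldn1 after it at 31.4 ± 3.28 and Tjp1 next at 12.8 ± 1.32, again without overlap. Of the summed level of the 9 genes, Cldn4 made up 28.5% and 27.5% in the 2 controls and 46.3% and 50.6% in the 2 MOF cKO libraries. Cldn1 made up 38.4% and 33.9% of it in the controls, against 31.6% and 29.0% with MOF deleted. Cldn7 moved down the order, below Cldn8, Ocln, Cldn6 and Cgn, at 1.01 ± 0.101 CPM per kb.

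At P0.5 the epidermal sheet was led by Cldn1. In the controls Cldn1 stood at 178.3 ± 34.1 CPM per kb, or 61.3% of the mean summed level, followed by Cldn4 at 65.0 ± 23.8, Tjp1 at 19.7 ± 2.10, Cgn at 13.0 ± 3.36 and Ocln at 11.5 ± 1.63. Cgn and Ocln overlapped, the other neighbours among these 5 did not. Cldn8 lay at 3.20 ± 1.07 CPM per kb, and Cldn6, Cldn7 and Cldn3 had at most 3 counts in any P0.5 library. In Kansl1 cKO, Cldn1 again came first at 168.5 ± 29.8 CPM per kb, and Cldn4 at 37.9 ± 23.4 overlapped Tjp1 at 20.7 ± 1.30.

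**Figure D1:**
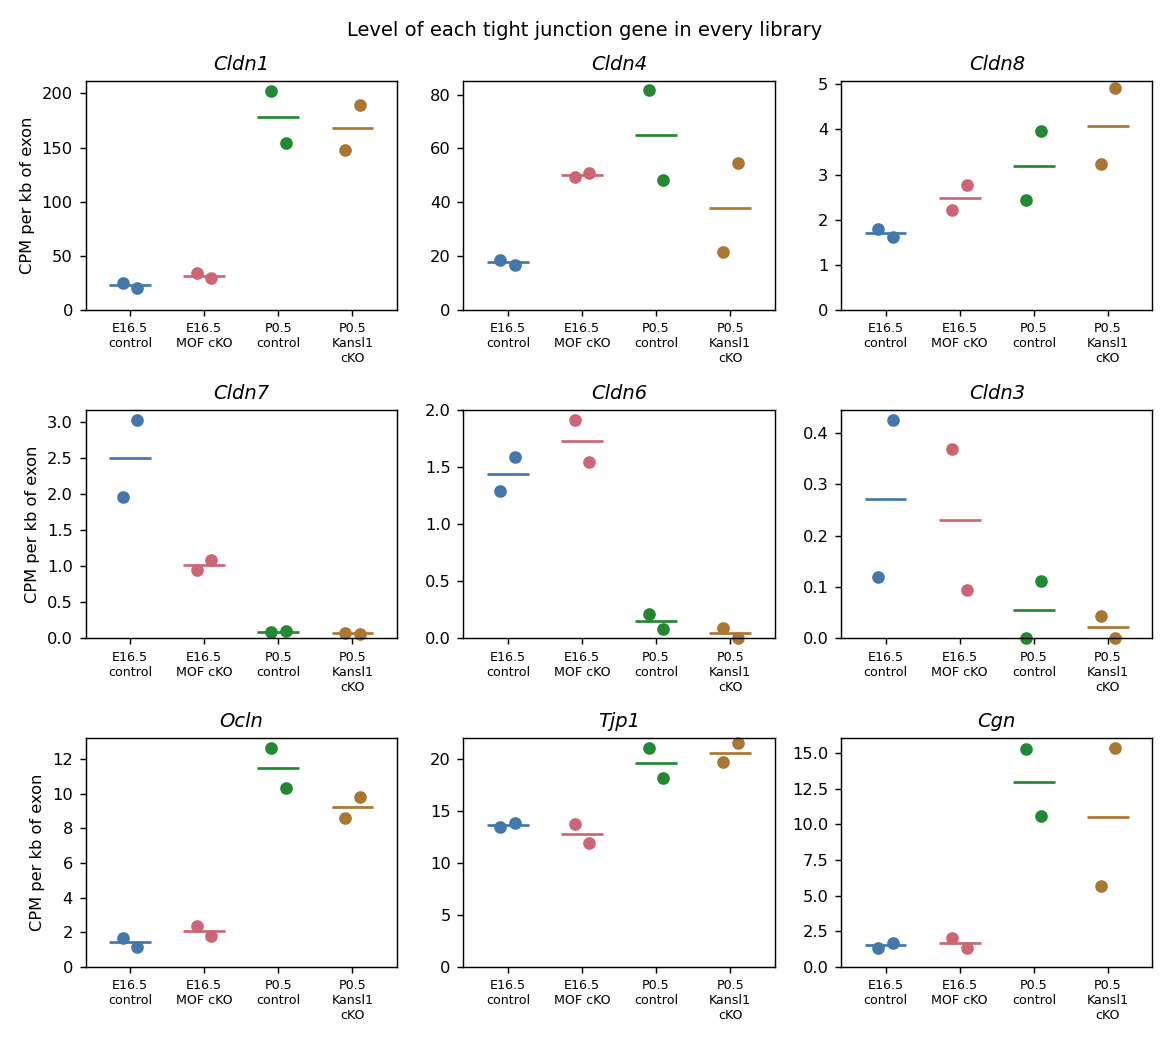
Level of each of the 9 tight junction genes in CPM per kilobase of exon, scaled over all 8 libraries, in E16.5 control, E16.5 MOF cKO, P0.5 control and P0.5 Kansl1 cKO. Points are libraries and bars are means of 2. In the Cldn4 panel both MOF cKO points (49.4 and 50.7) lie above both E16.5 control points (18.7 and 16.6), and the panels of Cldn7 and Cldn6 are near 0 at P0.5.

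Cldn4 and Cldn3 are neighbours on chromosome 5 of mm10, on opposite strands and 39280 bases apart, at 134945119-134946934 and 134986214-134987472. Their promoters are shown because one gene of this pair changed with MOF deletion and the other was close to undetected, and that of Cldn1 (chromosome 16, 26356642-26371841) because it was the most abundant member in 3 of the 4 groups. The lines give the 250 bases before the RefSeq start of each gene, 5′ to 3′ on its own strand, from the GRCm38.p6 tables of RefSeq. Capitals mark CACCTG, the reverse complement of CAGGTG and the core of an E-box, a letter pattern that repressors of the Snail and Zeb families are known to bind.
Cldn4, chr5:134946935-134947184, minus strand: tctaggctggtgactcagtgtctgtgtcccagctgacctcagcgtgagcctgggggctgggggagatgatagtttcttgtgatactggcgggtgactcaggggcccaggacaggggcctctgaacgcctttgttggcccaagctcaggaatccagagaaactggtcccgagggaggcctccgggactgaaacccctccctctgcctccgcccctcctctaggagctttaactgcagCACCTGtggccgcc
Cldn3, chr5:134985964-134986213, plus strand: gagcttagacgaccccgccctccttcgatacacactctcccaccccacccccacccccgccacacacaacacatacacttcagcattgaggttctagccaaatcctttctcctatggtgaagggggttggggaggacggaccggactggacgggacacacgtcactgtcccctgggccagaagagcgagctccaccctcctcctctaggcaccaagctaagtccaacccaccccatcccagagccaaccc
Cldn1, chr16:26371840-26372089, minus strand: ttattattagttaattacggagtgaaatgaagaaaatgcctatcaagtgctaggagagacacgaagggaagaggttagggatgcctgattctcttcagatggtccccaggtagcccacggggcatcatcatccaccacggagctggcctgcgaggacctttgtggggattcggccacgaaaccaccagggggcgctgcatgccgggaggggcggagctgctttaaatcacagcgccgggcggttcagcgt
Of the 9 genes, 8 had a promoter in the table, with 10 windows of 250 bases before and 50 after a start. CAGGTG or CACCTG lay in 6 of these windows, from 5 genes (Cldn3, Cldn4, Cldn6, Cldn7 and Ocln), and in 20.2% of all 32851 windows. In Cldn4 one match began 14 bases before the start and another 11 bases after it, and in Cldn3 the match began 31 bases after the start. AACCGGTT, the core of the grainyhead-like motif searched on both strands, lay in none of the 10 windows and in 48 of all windows (0.15%).

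Deletion of MOF at E16.5 was compared with control to ask how these genes respond when the acetyltransferase is lost. Genes count as called where edgeR's quasi-likelihood test gave an adjusted p of at most 0.01 and the fold change was over 1.5. All 9 genes passed the filter on low counts. Cldn4 was called higher and none was called lower, against 10.0% of the 13956 genes tested called higher and 9.59% called lower. The median log2 fold change was 0.26 over the 9 genes and -0.02 over all genes tested.

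Cldn4, a claudin of the suprabasal epidermis that seals against ions, had 1132 and 901 counts in the controls against 1937 and 2359 after MOF deletion. That is 36.9 and 32.5 CPM in control, against 97.2 and 99.9 CPM in MOF cKO. Both MOF cKO libraries lay far above both controls, and the spread within each genotype was small beside the gap. The log2 fold change was 1.5 (SE 0.122, 95% interval 1.22 to 1.79, edgeR adjusted p = 0.000402), a 2.84-fold rise. It was between 1.42 and 1.60 when each library was left out in turn. In 1 fit over all 8 libraries, which shares an estimate of the spread between the experiments, the log2 fold change was 1.51 and the adjusted p was 0.0146, which ends the call at 0.01.

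Cldn1, the claudin whose loss in mice opens the epidermal water barrier, was at 88.9 and 71.8 CPM in control and at 119 and 102 CPM in MOF cKO. The groups did not overlap, but the difference was small. Its log2 fold change was 0.46 (SE 0.143, 95% interval 0.12 to 0.79, edgeR adjusted p = 0.0397) and was not called. Cldn8, a claudin best known from the kidney, was at 4.57 and 4.12 CPM in control and at 5.62 and 7.07 in MOF cKO. The log2 difference was 0.55 (95% interval -0.17 to 1.27, edgeR adjusted p = 0.194), with no overlap between the groups.

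Cldn7, which is found along the sides of epithelial cells, was the member with the largest difference in the other direction. It was at 3.16 and 4.84 CPM in control (97 and 134 counts) and at 1.51 and 1.74 CPM in MOF cKO (30 and 41 counts). Both MOF cKO libraries were below both controls, with a log2 fold change of -1.30 (SE 0.449, 95% interval -2.35 to -0.24). The edgeR adjusted p was 0.0555, so it was not called. Cldn6, known as a claudin of embryonic epithelia, was at 2.41 and 2.96 CPM in control and at 3.56 and 2.88 CPM in MOF cKO. These groups overlapped, and the log2 difference of 0.26 had a 95% interval from -0.71 to 1.23. Cldn3, a barrier-forming claudin, had 5 and 16 counts in the controls against 10 and 3 with MOF deleted. A change of Cldn3 could not be detected at this depth, with a 95% interval of the log2 difference from -2.76 to 2.27.

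Ocln was at 7.63 and 5.20 CPM in control and at 10.9 and 8.17 CPM in MOF cKO. Both MOF cKO libraries were above both controls, and the log2 difference of 0.57 (95% interval -0.13 to 1.26, edgeR adjusted p = 0.168) was not called. Tjp1, the scaffold on which claudins assemble, was at 105 and 106 CPM in control and at 106 and 91.7 CPM in MOF cKO. Its log2 difference was -0.09, and the 95% interval of -0.37 to 0.18 holds no change as large as the fold threshold. Cgn was at 8.64 and 10.8 CPM in control and at 13.0 and 8.43 CPM in MOF cKO. The 2 control values lay between the MOF cKO values, with a log2 difference of 0.13 (95% interval -0.51 to 0.78).

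**Figure D2:**
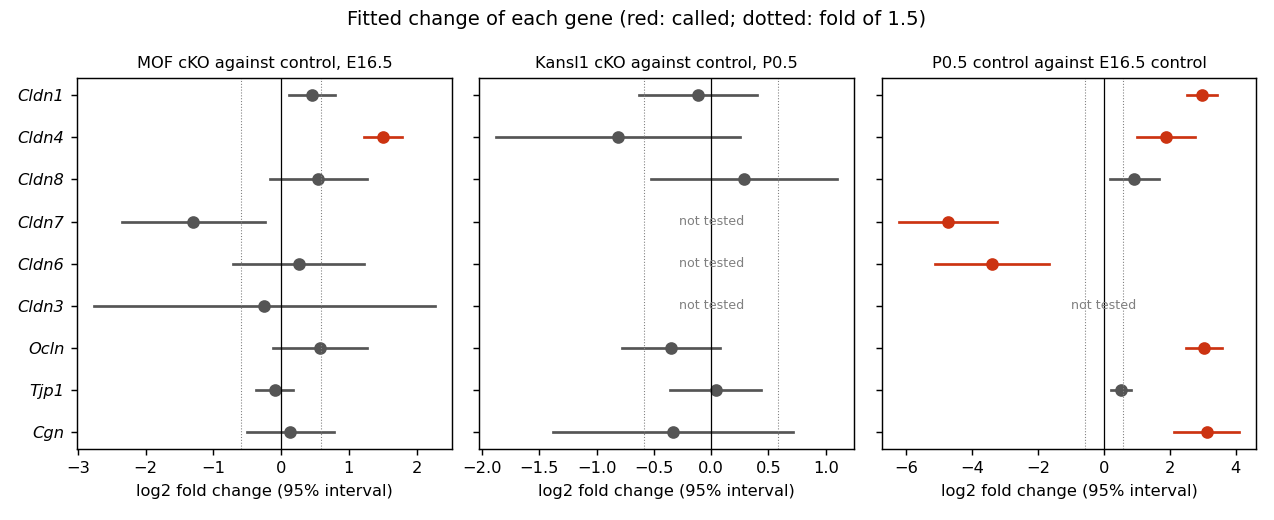
Fitted log2 fold changes (x axis) of the 9 genes with 95% intervals for MOF cKO against control at E16.5, Kansl1 cKO against control at P0.5, and P0.5 control against E16.5 control, each panel with its own x range. Red marks called genes, the dotted lines a fold of 1.5. Cldn4 is the called gene of the first panel at 1.5, the second panel has none, and the third has 4 to the right and 2 to the left.

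The rise of Cldn4 came with higher summed levels of upper layer markers in the same libraries. Over all 13956 genes tested, 10.0% were called higher and 9.59% lower, and 6820 had an unadjusted edgeR p under 0.05. Of 6 spinous layer markers, 5 were called higher in MOF cKO (Krt1, Krt10, Krtdap, Sbsn and Dsc1), and the list summed to between 3416 and 4228 CPM in control and between 9242 and 10125 CPM in MOF cKO. Of 7 granular layer markers, 3 were called higher (Ivl, Tgm1 and Tgm3), and the list summed to between 17.3 and 20.1 CPM against between 104 and 114 CPM. Most of that sum in MOF cKO was Tgm1, at 5.81 and 3.68 CPM in control and at 69.6 and 64.1 CPM in MOF cKO. Of the granular markers that were not called, 2 had a negative log2 difference: Lce1a1 was at 0.424 and 0.578 CPM in control and at 0.100 and 0.0847 CPM in MOF cKO (log2 -2.38, edgeR adjusted p = 0.0910), and Hrnr at 1.04 and 2.20 CPM and at 0.402 and 1.57 CPM, with overlapping groups. The sums of the 6 basal markers overlapped between the genotypes, at 34967 to 36642 CPM in control and 30801 to 38044 CPM in MOF cKO. Of the 6, 2 were higher and 4 lower in MOF cKO, with 3 at an unadjusted edgeR p under 0.05. Krt15 was called lower, at 4160 and 3327 CPM in control and at 1507 and 1626 CPM in MOF cKO. Itgb4 was higher without overlap, at 596 and 577 CPM in control and at 773 and 834 CPM in MOF cKO. In these bulk libraries more cells of a layer and more RNA per cell cannot be told apart, and the part of the layer markers in the Cldn4 result was not tested.

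Markers of other cells also differed between these libraries. Their counts stand beside 10.0% of all genes called higher, 9.59% called lower, and 6820 of 13956 at an unadjusted edgeR p under 0.05. Macrophage and Langerhans markers (4 of 6 tested called higher) summed to between 18.7 and 43.6 CPM in control and between 71.9 and 99.8 CPM in MOF cKO. Most of the control sums was Cd68, which was not called, at 18.1 and 41.7 CPM in control and at 22.9 and 51.9 CPM in MOF cKO. The called markers were near 0 in control. Lyz2 went from 0.098 and 0.289 CPM to 21.2 and 22.8 CPM, and Csf1r from 0.196 and 0.903 CPM to 10.3 and 11.6 CPM. Fibroblast markers (0 of 6 called by edgeR, 5 with an unadjusted p under 0.05) summed to between 422 and 1045 CPM in control and between 1133 and 1750 CPM in MOF cKO. Of 5 endothelial markers Pecam1 was called higher, and the list summed to between 6.16 and 7.22 CPM in control and between 10.8 and 22.3 CPM in MOF cKO. Muscle markers (0 of 4 tested called by edgeR, 2 with an unadjusted p under 0.05) summed to at most 1.48 CPM in control and to 3.56 and 15.3 CPM in MOF cKO. Merkel cell markers went the other way, with 0 of 5 called by edgeR, 3 with an unadjusted p under 0.05, and sums between 16.9 and 24.4 CPM in control and between 8.94 and 9.39 CPM in MOF cKO. Of 3 Schwann cell and 5 melanocyte markers tested 0 were called by edgeR, with 1 of each at an unadjusted p under 0.05, and the melanocyte sums overlapped between the genotypes. Of 8 periderm and simple epithelium markers, 4 were higher and 4 lower in MOF cKO. Krt6a was called higher and Krt8 lower, from 25.8 and 25 CPM to 3.41 and 5.67 CPM. The list summed to between 1627 and 2261 CPM in control and between 3791 and 4797 CPM in MOF cKO. Most of the MOF cKO sums came from Krt17 and Krt6a. Krt6a went from 15.2 and 16.9 CPM to 1445 and 1491 CPM. Krt17, which was not called, went from 1566 and 2198 CPM to 2313 and 3262 CPM. Of 6 hair germ markers, 3 were called lower (Shh, Lhx2 and Edar), and the list summed to between 484 and 685 CPM in control and between 274 and 294 CPM in MOF cKO. None of these marker lists had a gene at 0 in both libraries of an E16.5 group. The part of these markers in the values of the 9 genes was not tested.

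Deletion of Kansl1 at P0.5 was compared with control to ask whether loss of the NSL subunit moves the same genes. Of the 9 genes, 6 could be tested, and Cldn3, Cldn6 and Cldn7 had at most 3 counts in each library. edgeR called 0 of the 6, against 0% called higher and 0% called lower of the 13031 genes tested. At an unadjusted p under 0.05 there were 2045 genes, 0 of the 6 among them. DESeq2 called 55 genes lower and 35 higher, and 0 of the 6. The median log2 fold change was -0.23 over the 6 genes and 0.01 over all genes.

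Cldn4 had 1214 and 1258 counts in the P0.5 controls and 726 and 1145 in Kansl1 cKO. These were 139 and 81.3 CPM in control and 35.2 and 90.5 CPM in Kansl1 cKO. The groups overlapped: Kansl1 cKO replicate 1 lay below every other P0.5 library, and replicate 2 lay between the controls. The log2 difference was -0.81 (SE 0.446, 95% interval -1.87 to 0.25, edgeR adjusted p = 0.428).

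Cgn showed the same order of libraries, at 86.5 and 59.3 CPM in control and at 30.9 and 84.8 CPM in Kansl1 cKO. Kansl1 cKO replicate 1 was again the lowest. The log2 difference was -0.34 (95% interval -1.38 to 0.71, edgeR adjusted p = 0.751). Single libraries decided both values. Without Kansl1 cKO replicate 2, the log2 differences were -1.64 for Cldn4 and -1.23 for Cgn, and without replicate 1 they were -0.32 and 0.19.

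Ocln was at 50.1 and 40.7 CPM in control and at 33.0 and 38.0 CPM in Kansl1 cKO. Both Kansl1 cKO libraries lay below both controls, and the log2 difference of -0.35 (95% interval -0.78 to 0.08, edgeR adjusted p = 0.394) was not called. Cldn1 was at 616 and 466 CPM in control and at 435 and 564 CPM in Kansl1 cKO, with a log2 difference of -0.11 (95% interval -0.63 to 0.40). Cldn8 was at 5.39 and 8.66 CPM in control and at 6.93 and 10.6 CPM in Kansl1 cKO, with a log2 difference of 0.29 (95% interval -0.52 to 1.10). For both genes the groups overlapped. Tjp1 was at 141 and 120.1 CPM in control and at 128 and 141 CPM in Kansl1 cKO, and its interval of -0.36 to 0.44 on the log2 scale lay within the fold threshold.

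The granular layer markers had the same order of P0.5 libraries as Cgn except at the top. They summed to 14979 and 9776 CPM in control and to 6978 and 18095 CPM in Kansl1 cKO, and the spinous layer markers to 73485 and 41481 CPM and to 44437 and 69655 CPM. Kansl1 cKO replicate 1 was the lowest in the granular list and P0.5 control replicate 2 in the spinous list. Fibroblast markers summed to between 699 and 1462 CPM in control and between 326 and 349 CPM in Kansl1 cKO, with 0 of 6 called by edgeR and 6 at an unadjusted p under 0.05. Melanocyte markers summed to between 429 and 472 CPM in control and between 911 and 1026 CPM in Kansl1 cKO, with 0 of 5 called by edgeR and 5 at an unadjusted p under 0.05. Over all 13031 genes tested, 0 were called and 2045 had an unadjusted p under 0.05. The part of these markers, and of the muscle RNA in P0.5 control replicate 1, in the values of the 9 genes was not tested. Without that control the log2 differences of Cldn4 and Cgn were -0.38 and -0.04.

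**Figure D3:**
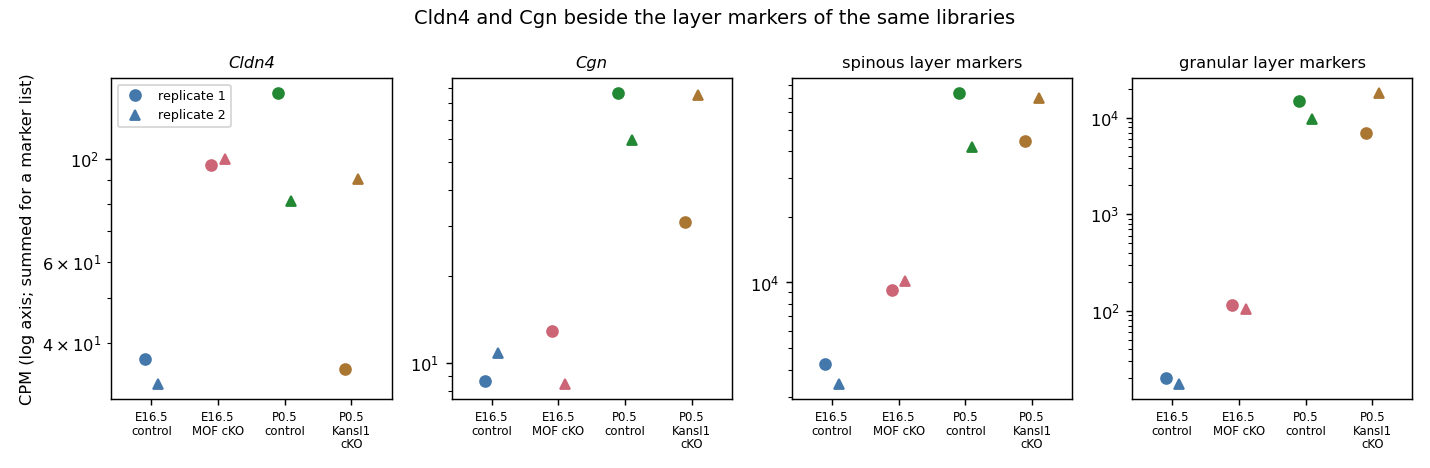
Cldn4, Cgn and the summed spinous (6 genes) and granular (7 genes) layer markers in each library, in TMM-scaled CPM of its own experiment on log axes. Circles are replicate 1 and triangles replicate 2 of each group. In Kansl1 cKO replicate 1 is below replicate 2 in all 4 panels (Cldn4 35.2 against 90.5 CPM), and in MOF cKO both libraries are above both controls for Cldn4 and for both marker lists.

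Whether the effects of the 2 deletions differ was tested as a contrast in 1 fit over the 8 libraries. Of the 8 genes tested, edgeR called 0, against 1.76% of the 14565 genes tested called higher and 1.17% called lower. At an unadjusted p under 0.05 were 2 of the 8, Cldn4 and Ocln, against 4540 of the 14565. Cldn4 had the largest difference among the 8, with a log2 value of 2.29 (SE 0.537, 95% interval 1.08 to 3.50). Its edgeR adjusted p was 0.0257 and missed the threshold, whereas DESeq2 called it (2.38, adjusted p = 2.61e-05). The value was 3.10 and called without Kansl1 cKO replicate 2 (adjusted p = 0.00208). Ocln was at 0.89 (95% interval 0.16 to 1.61, edgeR adjusted p = 0.0984) and Cldn1 at 0.54 (95% interval -0.06 to 1.14, adjusted p = 0.204). Tjp1 was at -0.17, with a 95% interval of -0.60 to 0.27. The remaining values were 0.44 for Cgn, 0.23 for Cldn8, 1.48 for Cldn6 and -0.89 for Cldn7, and all 4 intervals held 0. At P0.5 Cldn6 and Cldn7 had too few counts for this contrast to tell the effects apart.

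The P0.5 controls were set against the E16.5 controls to describe how these genes stood in newborn epidermal sheets and in sorted embryonic cells. This comparison uses the same control libraries as those above. Stage, isolation and instrument differ together, so a difference here cannot be read as a change with age alone. Of the 8 genes tested, 4 were called higher at P0.5 and 2 lower, against 19.6% and 20.6% of the 14565 genes tested. The 2 called lower, Cldn6 and Cldn7, passed the filter on low counts only through the E16.5 libraries. The filter thus left them no other direction for a call. The median log2 value was 1.40 over the 8 genes and -0.13 over all genes.

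Cldn1, Ocln and Cgn were higher at P0.5, by 7.82 to 8.68 times. On the scale per kilobase Cldn1 was at 25.2 and 20.5 CPM per kb in the E16.5 controls and at 202 and 154 in the P0.5 controls, 7.82-fold higher in the fit (log2 2.97, SE 0.203, edgeR adjusted p = 6.49e-06). Ocln was at 1.66 and 1.14 CPM per kb and at 12.7 and 10.4, 8.19-fold higher (log2 3.03, SE 0.242, adjusted p = 1.44e-05). Cgn was at 1.32 and 1.66 CPM per kb and at 15.3 and 10.6, 8.68-fold higher (log2 3.12, SE 0.442, adjusted p = 0.000337). For each of these 3 genes both P0.5 libraries lay far above both E16.5 libraries.

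Cldn4 was at 18.7 and 16.6 CPM per kb in the E16.5 controls and at 81.8 and 48.2 in the P0.5 controls. It was 3.68-fold higher (log2 1.88, SE 0.387, edgeR adjusted p = 0.00273). The call was lost without E16.5 control replicate 1 (adjusted p = 0.0142), E16.5 control replicate 2 (0.0157) or P0.5 control replicate 1 (0.0220, log2 1.45), but the libraries did not overlap. Tjp1 was at 13.5 and 13.8 CPM per kb and at 21.2 and 18.2, with a log2 difference of 0.52 (edgeR adjusted p = 0.00950) that stayed below the fold threshold of 1.5, while DESeq2 gave 0.65 and called it. Cldn8 was at 1.78 and 1.62 CPM per kb and at 2.44 and 3.96, with a log2 difference of 0.93 (edgeR adjusted p = 0.0362) that was not called.

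Cldn7 and Cldn6, which passed the filter only through the E16.5 libraries, went the other way. Cldn7 had 97 and 134 counts in the E16.5 controls and 1 and 2 counts in the P0.5 controls. Scaled for depth, its E16.5 level was 27.4 times the P0.5 level, with a 95% interval for counting error alone of 9.27 to 133.9 (edgeR adjusted p = 0.000310). Cldn6 had 74 and 82 counts at E16.5 and 3 and 2 at P0.5, a ratio of 11.1 (95% counting interval 4.66 to 34.7, edgeR adjusted p = 0.00439). Both genes were close to undetected in the newborn sheet, and the Cldn6 call was lost when any 1 of the 4 control libraries was left out (adjusted p between 0.0120 and 0.0446). Cldn3 had 21 counts over the E16.5 controls and 2 over the P0.5 controls, a ratio of 3.74 whose counting interval of 0.914 to 32.9 holds 1.

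Markers of layers and of other cells were counted in the same comparison, beside 19.6% of all genes called higher and 20.6% called lower. Their sums are in CPM scaled within each experiment, so the 2 sides are not on 1 scale. All 6 spinous and all 7 granular markers were called higher at P0.5, with the granular list at 17.3 to 20.1 CPM in the E16.5 controls and at 9776 to 14979 CPM in the P0.5 controls. Of 6 basal markers Krt5 and Itgb4 were called lower. Of the periderm and simple epithelium markers 0 of 8 were called higher and 3 lower (Krt8, Krt18 and Krt17), and of 6 hair germ markers 2 were called lower (Edar and Lef1). All 5 melanocyte markers were called higher, with sums between 13.5 and 45.6 CPM in the E16.5 controls and between 429 and 472 CPM in the P0.5 controls. Of 6 macrophage and Langerhans markers tested 5 were called higher, of 5 muscle markers 3 (Acta1, Des and Ttn) and of 6 fibroblast markers 1 (Pdgfra), and of 5 Merkel cell markers 1 was called lower (Piezo2). Cd207, which marks Langerhans cells, was at 0 in both P0.5 controls. The part of these markers in the values of the 9 genes was not tested.

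Around these 9 genes, a list of 88 further tight junction genes in the files gives the rest of the pathway, among them other claudins, tricellular and JAM proteins, scaffolds, polarity complexes, claudin partners with the matriptase proteases, and transcription factors known to act on claudins. In MOF cKO, 12 of the 74 tested were called higher and 2 lower, beside 10.0% and 9.59% of all genes. The median log2 fold change of the list was 0.30. With library sizes left unscaled, which moves the median of all genes to -0.32, 3 were called higher and 5 lower, beside 5.51% and 19.7% of all genes.

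Among scaffolds and adaptors, 3 of 17 were called higher and 2 lower, beside the same 10.0% and 9.59% of all genes. Csda (ZONAB), a Y-box factor that binds ZO-1, rose by 0.72 on the log2 scale, and Vapa, which binds occludin, by 0.70.

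Cgnl1 (paracingulin), the relative of cingulin, was at 72.0 and 73.7 CPM in control and at 13.4 and 19.8 CPM in MOF cKO (log2 -2.13, SE 0.192, edgeR adjusted p = 0.000539). Mpdz (MUPP1), a scaffold of many PDZ domains that binds claudin tails, was at 148 and 132 CPM and at 69.8 and 60.8 CPM (log2 -1.10, SE 0.124, adjusted p = 0.000909). At P0.5 neither gene was called with Kansl1 deletion, where edgeR called 0 of all 13031 genes tested. Cgnl1 was at 56.7 and 58.7 CPM in control and at 62.1 and 47.3 CPM in Kansl1 cKO, and Mpdz at 58.0 and 63.5 CPM and at 85.2 and 60.9 CPM.

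The partner and protease list had 5 of 7 genes called higher in MOF cKO and 0 lower, beside 10.0% and 9.59% of all genes. This list was chosen with earlier results of these data known, so the count is given as a description. Epcam, which binds and stabilises claudin-7 and claudin-1, was at 169 and 185 CPM in control and at 208 CPM in both MOF cKO libraries, a log2 difference of 0.23 (edgeR adjusted p = 0.116) that was not called. The membrane protease matriptase (St14) rose by 0.65 on the log2 scale (adjusted p = 0.00999), its inhibitors Spint2 and Spint1 by 0.62 and 0.60, and the kinase Epha2 by 0.96 (adjusted p = 0.00406). Prss8 (prostasin), another membrane protease, was at 6.52 and 7.04 CPM in control and at 9.59 and 10.0 CPM in MOF cKO (log2 0.53, adjusted p = 0.109).

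Of 14 transcription factors, 2 were called higher in MOF cKO and 0 lower, beside 10.0% and 9.59% of all genes. Both are grainyhead-like factors, known for epidermal barrier genes: Grhl3 was at 40.3 and 33.2 CPM in control and at 87.2 and 76.2 CPM in MOF cKO (log2 1.15, edgeR adjusted p = 0.00124), and Grhl1 at 39.1 and 41.5 CPM and at 86.5 and 72.1 CPM (log2 0.98, adjusted p = 0.00172). Grhl2, the other member of the family, had a log2 difference of -0.18 (adjusted p = 0.205). Trp63 (p63), the regulator of stratified epithelium, was at 708 and 632 CPM and at 484 and 417 CPM, a log2 difference of -0.57 (adjusted p = 0.00870) just below the fold threshold.

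Of the remaining groups, F11r (JAM-A) rose by 0.70 and the polarity gene Pard6b by 0.99 on the log2 scale (edgeR adjusted p = 0.00247 and 0.00819). The other claudins (5 tested) and the tricellular and MARVEL proteins (6 tested) had 0 called by edgeR in either direction, beside 10.0% and 9.59% of all genes. In each of these groups 3 genes had an unadjusted p under 0.05, beside 6820 of all 13956 genes tested. One of those claudins is uncertain: the gene listed as Cldn25 (log2 0.57) bears a symbol that RefSeq gives as a synonym of both Cldnd1, a claudin domain protein, and Cldn25-ps.

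**Figure D4:**
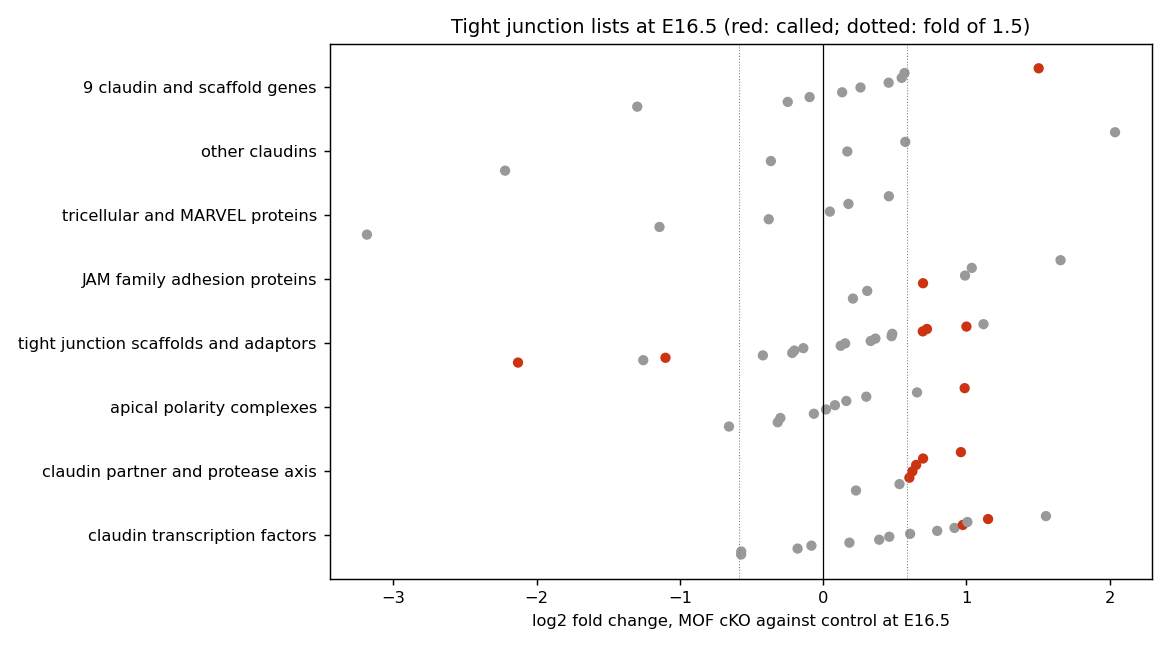
Log2 fold change of tested genes in MOF cKO against control at E16.5 (x axis), in rows for the 9 genes and for groups of the wider tight junction list. Each point is a gene, red where called, and the dotted lines mark a fold of 1.5. Called falls (Cgnl1 at -2.13 and Mpdz at -1.10) lie in the row of scaffolds and adaptors, and 5 of the 7 genes in the partner and protease row are called higher.

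With Kansl1 deletion at P0.5, edgeR called 0 of 69 tested genes of the wider list, beside 0 of all 13031 genes tested. DESeq2 also called 0 of them, beside 55 lower and 35 higher of 17364 genes. At an unadjusted edgeR p under 0.05 were 9 of the 69, beside 2045 of the 13031. The median log2 fold change of the list was 0.07. A call in this list without Kansl1 cKO replicate 2 rests on a lone library of that group. The smallest adjusted p was that of Snai2, at 0.80 on the log2 scale (edgeR adjusted p = 0.197), followed by Clmp, a JAM-like adhesion protein, at -1.26 (adjusted p = 0.250).

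Between the controls, 14 of 76 tested genes of the wider list were called higher at P0.5 and 13 lower, beside 19.6% and 20.6% over all genes. Cldn23 had the largest difference, with 4 and 11 counts in the E16.5 controls and 519 and 689 counts in the P0.5 controls (log2 7.83, edgeR adjusted p = 7.75e-06). It passed the filter on low counts only through the P0.5 libraries, which left no other direction for a call. Prss8 was higher by 3.96, Clmp by 2.80, Zeb2 by 2.64, Grhl1 by 2.62 and Ovol1 by 2.10 on the log2 scale. Ildr2 (-1.98), Epha2 (-1.88), Marveld1 (-1.67) and Micall2 (-1.57) were lower. Library sizes left unscaled moved the median of all genes in this comparison from -0.13 to -0.46, and 9 genes of the list were then called higher, beside 14.7% of all genes. Without E16.5 control replicate 1 or 2, 8 and 9 genes were called higher, beside 13.1% and 14.7% of all genes. Without E16.5 control replicate 2 or P0.5 control replicate 1, 8 were called lower, beside 10.3% and 12.9%.

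For each of the 8 genes with enough counts, the gene with the most similar profile was found by Pearson's r of log2 CPM over the 8 libraries, among 14564 genes. The libraries fall into 2 experiments, so r rests largely on the gap between them and is given as a description. The closest were Glo1 for Cldn1 (r = 0.999), Erlin1 for Ocln (0.998), Rab11fip1 for Cgn (0.995), Map2 for Tjp1 (0.991), Cacna1d for Cldn8 (0.990), Egr4 for Cldn7 (0.997) and Morc4 for Cldn6 (0.995). Cldn4 had the least close match of the 8, with Bid at 0.979.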

How the data were processed

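Polyadenylated RNA of 8 libraries, 2 per group, was sequenced from both ends with a strand-marking kit. The authors aligned reads to mm10 and deposited raw counts per gene from HTSeq. The article's methods name HISAT2 and the labels' processing notes TopHat2. The strand setting and annotation are not given in the sources used here, so overlapping genes (Cldn6 and Cldn9 lie 138 bases apart) may share reads. Entries naming no gene (21.1% to 26.0% of reads) were left out.

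The analysis used edgeR 4.0.16 in R 4.3.3, with filterByExpr, TMM factors, glmQLFit and glmQLFTest with Benjamini-Hochberg adjustment over all genes tested. The thresholds were an adjusted p of 0.01 and a fold change of 1.5. Each experiment was fitted alone, and contrasts across experiments in 1 fit with 4 groups. The code was tested on simulated data. Alternatives were DESeq2 1.42.0, other scalings, filters and thresholds, a replicate block, 1 fit over 8 libraries and leaving out each library. Coordinates and exon lengths came from GENCODE M21, promoters from RefSeq. Counting intervals cover counting error only. No source states how many animals a library holds, so p-values measure the spread between libraries. Named were all 9 genes, genes of the wider list that were called (at most the 12 of largest change, beside all partner, protease and transcription factor genes), and the targeted genes. The results of some genes are not reported here. The genes and lists were chosen with earlier results of these data known.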

Additional observations from a re-analysis of the deposited data

Results flagged for a closer look

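The effects of the 2 deletions differed by the contrast itself for 2 scaffold genes, tested in 1 edgeR fit over 8 libraries. They were the genes called lower among 76 tested of the wider list, and 0 were called higher, beside 1.17% lower and 1.76% higher of all 14565 genes. The effect of MOF deletion at E16.5 minus that of Kansl1 deletion at P0.5 was -2.09 for Cgnl1 on the log2 scale (SE 0.287, 95% interval -2.74 to -1.44, adjusted p = 0.00439). The same contrast was -1.40 for Mpdz (SE 0.249, 95% interval -1.96 to -0.84, adjusted p = 0.00998), just inside the threshold of 0.01. For both genes the 2 MOF cKO libraries lay below the 2 E16.5 controls. At P0.5 the genotypes overlapped for Mpdz and for Cgnl1. The deleted gene, the stage and the isolation differ together between the effects and cannot be told apart. Both calls were lost in the edgeR fits without E16.5 control replicate 1, E16.5 control replicate 2, E16.5 MOF cKO replicate 1 or P0.5 control replicate 1, where 0.206%, 0.127%, 0.180% and 0.0789% of all genes were called lower, and under the replicate block, where 0% were. Over these 5 fits the log2 values were -2.12 to -1.84 for Cgnl1 and -1.51 to -1.33 for Mpdz. The Mpdz call was also lost without E16.5 MOF cKO replicate 2 (-1.17), P0.5 control replicate 2 (-1.49) or Kansl1 cKO replicate 1 (-1.14), and with upper-quartile or DESeq2 size factors (-1.38 and -1.30).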

How the results depend on the processing

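With 2 libraries per group, leaving out 1 leaves a lone library that is assumed to vary like the others. The rise of Cldn4 in MOF cKO was called in 11 of 12 alternatives, at log2 values of 1.20 to 1.60, and the count of members called higher went from 1 to 0 in 1 fit over all 8 libraries. With library size alone, Cldn6 (-0.045) and Cgn (-0.18) reversed in MOF cKO, as did Tjp1 in Kansl1 cKO (-0.0093, and -0.012 with upper-quartile factors). Of the wider list in MOF cKO, 3 were called higher with library size alone (10 to 11 when 1 library was left out), and 5, 5 and 4 were called lower at an adjusted p of 0.05, with library size alone and without the filter on low counts (1 count sufficed), beside 2296 and 2743 of 13956 genes and 2197 of 17539 (2 to 3 when 1 was left out). For Kansl1 cKO, leaving out 1 library gave log2 values of -1.64 to -0.32 for Cldn4 and -0.53 to -0.20 for Ocln.

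For the difference between the effects, 1 member (Cldn4) was called higher at an adjusted p of 0.05, without that filter, with DESeq2 and in 1 of the fits without a library (0 to 1), and 6, 8 and 5 genes of the wider list in the first 3 of these, beside 7.04%, 6.03% and 5.10% of all genes (0 to 1 when 1 library was left out, beside 0.405% to 1.89%). Of the wider list 1 was called lower with upper-quartile factors or DESeq2 size factors, and 0 to 2 when 1 library was left out, beside 1.04%, 0.851% and 0.0789% to 0.888% of all genes. Between the controls, 3 to 5 members were called higher and 1 to 2 lower when 1 library was left out. Of the wider list, 8 to 16 were called higher and 8 to 15 lower in the same fits. The share of all genes called moved across these fits too, from 13.1% to 21% higher and from 10.3% to 19.4% lower. With library size alone, 9 genes of the wider list were called higher, beside 14.7% of all genes.

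Signs turned when 1 library was left out, without a call, for Cldn3 (-1.50 to 0.91), Tjp1 (-0.21 to 0.0057) and Cgn (-0.21 to 0.41) in MOF cKO, for Cldn1 (-0.33 to 0.10), Cldn8 (-0.031 to 0.66) and Tjp1 (-0.10 to 0.16) in Kansl1 cKO, and for Cldn8 (-0.19 to 0.54), Tjp1 (-0.28 to 0.075) and Cgn (-0.13 to 1.32) in the difference. The sign also turned for Cgn in Kansl1 cKO (-1.23 to 0.19), where the low end rests on a lone Kansl1 cKO library. No source used here ties the replicate numbers to litters. Deviations of same-numbered libraries correlated at 0.21 at E16.5 and at -0.20 at P0.5, and with 2 pairs in each experiment these values do not settle whether the numbers pair the libraries. With the replicate number as a block, 5 genes of the wider list were called lower in MOF cKO and 0 in the difference, beside 16.2% and 0% of all genes (9.59% and 1.17% without the block), and the control contrast of Cldn4 was 1.92 with an adjusted p of 0.0139. Crossing the pairs at P0.5, an alternative chosen after seeing the data, called 1 member and 6 genes of the wider list higher in the difference, beside 5.29% of all genes. Over single genes 400 values kept direction and side of the threshold, 19 reversed, 13 gained and 9 lost a call.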
